A study of Rattus norvegicus with 6 samples.

Results

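The transcripts of 37 genes of fatty acid oxidation and ketone body metabolism were followed in rat liver before and after the onset of hyperglycemia. The genes were chosen by what they do, but with earlier results of these data known. Transcripts of Cpt1a, Acox3, Acot12 and Ehhadh were lower after the onset than before it, by 1.60 to 1.95-fold. The excess of 3' over 5' control signal was also largest in the arrays after the onset. With that excess as a covariate, 0 of 36 genes and 0 of all probe sets passed the test. In that fit the log2 differences were -0.71 for Cpt1a, -0.85 for Acot12, -0.27 for Acox3 and -0.11 for Ehhadh. A gene was followed through the probe sets whose only gene symbol, in the probe-to-gene table of the array, was a listed gene. These were 51 of 31042 probe sets, and they covered 36 of the 37 genes, of 14217 genes in all with a probe set of their own. Acaa1a, the peroxisomal thiolase, had no probe set under its symbol alone and was not analysed here. Where a gene had several probe sets (12 genes) it was read at the one with the highest mean over all arrays, called here the brightest, and the others were given beside it.

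Liver RNA was measured on 6 Affymetrix rat arrays in 3 groups of 2 arrays. The post-hyperglycemia group was BBDR.lyp/lyp rats at 55 days, shortly after blood glucose had risen. The pre-hyperglycemia group was BBDR.lyp/lyp rats at 50 days, and the normal group was BBDR.+/+ rats at 55 days. Both copies of the lymphopenia allele are mutant in the lyp/lyp animals, which have a BB rat background and few peripheral T cells and develop autoimmune diabetes spontaneously, whereas congenic BBDR.+/+ rats carry the normal allele and stay free of diabetes. Age and stage moved together within the lyp/lyp rats and could not be told apart. Nor could genotype and age between the pre-hyperglycemia and BBDR.+/+ groups, or genotype and stage between the post-hyperglycemia and BBDR.+/+ groups. The labels described a fast before tissue collection, while the methods of the study gave free access to food, so the feeding state of the rats was not settled, and the time of day of each collection was not given in the sources used here. No label tied an array to a rat, so the tests below measured only the spread between arrays. The 3 comparisons shared their arrays, and the values of 1 comparison are no independent check of another.

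Long-chain fatty acids enter mitochondria as carnitine esters, are shortened in a repeated spiral of dehydrogenation, hydration, second dehydrogenation and thiolysis, and pass their electrons through a flavoprotein to the respiratory chain. Peroxisomes shorten very long-chain and branched fatty acids by a parallel set of enzymes and hand the products on as carnitine esters or free acids. In liver, much of the acetyl-CoA from this process becomes ketone bodies, and the nuclear receptor PPAR alpha switches on many of these genes during fasting.

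Against the pre-hyperglycemia arrays, 4 of 36 enzymes were lower in the post-hyperglycemia arrays by limma with Benjamini-Hochberg adjustment over all probe sets, namely Cpt1a, Acox3, Acot12 and Ehhadh, and 0 were higher. Over all 14217 genes, 0.668% were called lower and 0.703% higher in that comparison. Against BBDR.+/+, 2 of 36 were lower in the post-hyperglycemia arrays, Acox3 and Acot12, where 1.24% of all genes were, and 0 were higher, where 2.29% of all genes were. In the pre-hyperglycemia arrays 2 of 36 were higher than in BBDR.+/+, Cpt1a and Crat, beside 0.584% of all genes, and 0 were lower, beside 0.218%. At an unadjusted p under 0.05 the counts were 11 lower (5.89% of all genes) and 0 higher (7.52%) for post- versus pre-hyperglycemia, 4 lower (5.47%) and 3 higher (13.4%) for post-hyperglycemia versus BBDR.+/+, and 1 lower (3.72%) and 13 higher (8.48%) for pre-hyperglycemia versus BBDR.+/+.

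Leaving out 1 array at a time gave fewer calls among the enzymes in some fits of each comparison. It also gave fewer calls over all probe sets in every fit, so the loss was not particular to the enzymes. The median log2 difference over the 36 enzymes then ranged from -0.19 to -0.12 for post- versus pre-hyperglycemia. Against BBDR.+/+ it ranged from 0 to 0.02 for post-hyperglycemia and from 0.14 to 0.17 for pre-hyperglycemia arrays. The calls that were lost are given with each gene.

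Many enzymes that did not pass the test also had lower values in the post- than in the pre-hyperglycemia arrays. The difference was below 0 for 33 of 36 enzymes (46.6% of all genes), and for 25 of 36 with the difference between 3' and 5' control signal of each array as a covariate. It was so for 16 (40.7%) in post-hyperglycemia versus BBDR.+/+ and for 6 (43.7%) in pre-hyperglycemia versus BBDR.+/+ arrays. Both post-hyperglycemia arrays lay below both pre-hyperglycemia arrays for 25 of 36 enzymes, beside 20.5% of all genes, and above both for 1 enzyme, Hacl1, beside 25.6%. The pre-hyperglycemia arrays both lay above both BBDR.+/+ arrays for 22 of 36 enzymes, beside 28.3% of all genes, and below both for 4, beside 17.7%. Between post-hyperglycemia and BBDR.+/+ arrays, 9 enzymes lay below (18.3% of all genes) and 11 above (32.4% of all genes). The median log2 difference over the 36 enzymes was -0.16 for post- versus pre-hyperglycemia, 0.01 for post-hyperglycemia versus BBDR.+/+ and 0.17 for pre-hyperglycemia versus BBDR.+/+. The same medians over all 14217 genes were 0.01, 0.04 and 0.02. Most of these enzymes are abundant in liver, and over the 1510 genes at or above the lower quartile of the enzymes' mean level the medians were -0.04, 0.02 and 0.05. By these medians the pre-hyperglycemia arrays had the highest levels of the enzymes, and the post-hyperglycemia and BBDR.+/+ arrays lay closest to each other.

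**Figure D1:**
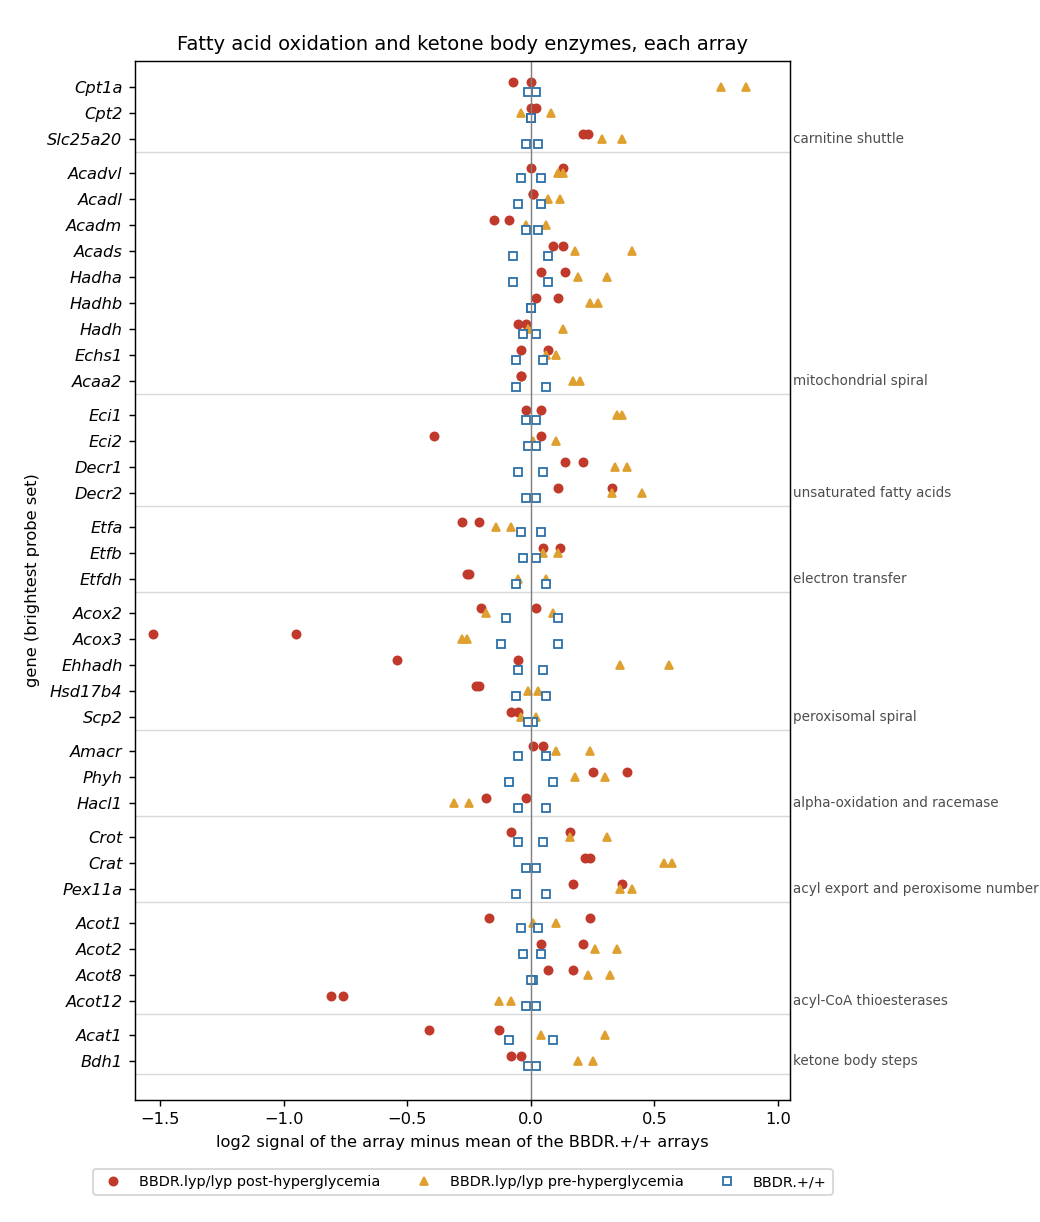
Log2 signal of the brightest probe set of each of the 36 enzymes in each array, minus the mean of the BBDR.+/+ arrays (x axis), with the enzymes grouped by step (y axis). Filled circles are post-hyperglycemia arrays, triangles pre-hyperglycemia arrays and open squares BBDR.+/+ arrays. Acox3 and Acot12 stand to the left in the post-hyperglycemia arrays, and Cpt1a and Crat stand to the right in the pre-hyperglycemia arrays.

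Cpt1a joins long-chain acyl groups to carnitine at the outer mitochondrial membrane, the step that controls entry into the spiral. Its brightest probe set (1386946_at) had log2 signals of 10.60 and 10.53 in the post-hyperglycemia arrays, 11.37 and 11.47 in the pre-hyperglycemia arrays and 10.59 and 10.62 in the BBDR.+/+ arrays. The pre-hyperglycemia arrays were high and did not overlap the other groups. Cpt1a fell by 0.85 on the log2 scale (SE 0.10, 1.80-fold) in post- versus pre-hyperglycemia arrays, with an adjusted p of 0.00361 by limma, and this call held with any 1 array left out (-0.90 to -0.80). The log2 difference of pre-hyperglycemia from BBDR.+/+ arrays was 0.81 (1.76-fold, adjusted p = 0.00574 by limma). That call was lost without pre-hyperglycemia replicate 2 (0.76), BBDR.+/+ replicate 1 (0.80) or BBDR.+/+ replicate 2 (0.83). The difference of post-hyperglycemia from BBDR.+/+ arrays was -0.04, with an adjusted p of 0.889 by limma.

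The second probe set of Cpt1a (1367836_at) gave another order of the groups. Its log2 signals were 7.04 and 7.34 in the post-hyperglycemia arrays, 8.50 and 8.74 in the pre-hyperglycemia arrays and 8.26 and 8.37 in the BBDR.+/+ arrays, so the post-hyperglycemia arrays were the low ones. It fell by 1.43 (2.69-fold, adjusted p = 0.00127 by limma) in post- versus pre-hyperglycemia arrays and by 1.13 (SE 0.13, 2.18-fold, adjusted p = 0.0012 by limma) in post-hyperglycemia versus BBDR.+/+ arrays, and both calls held with any 1 array left out. Both probe sets of Cpt1a therefore fell after the onset of hyperglycemia relative to before it, and they differed on whether the post-hyperglycemia level was below that of BBDR.+/+. The other carnitine shuttle enzymes were not called. Cpt2, which returns acylcarnitine to acyl-CoA inside the mitochondrion, had log2 signals between 10.78 and 10.90 in all 6 arrays. Slc25a20, the carrier of acylcarnitines across the inner membrane, had 9.72 and 9.70 in post-hyperglycemia, 9.78 and 9.86 in pre-hyperglycemia and 9.52 and 9.47 in BBDR.+/+ arrays, and its difference of 0.21 from BBDR.+/+ in post-hyperglycemia arrays had an adjusted p of 0.273 by limma.

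The 9 enzymes of the mitochondrial spiral had log2 signals of 9.88 to 12.72, and 0 of 9 passed the test in any of the 3 comparisons. At their brightest probe sets, all 9 had a difference below 0 for post- versus pre-hyperglycemia arrays, from -0.23 to -0.06 with a median of -0.14, and above 0 for pre-hyperglycemia versus BBDR.+/+ arrays, with a median of 0.12. Their median for post-hyperglycemia versus BBDR.+/+ arrays was 0.02. Acaa2, the mitochondrial thiolase that ends each turn, had the smallest unadjusted p of this step, with log2 signals of 12.48 and 12.48 in post-hyperglycemia, 12.72 and 12.69 in pre-hyperglycemia and 12.58 and 12.46 in BBDR.+/+ arrays. Its post- versus pre-hyperglycemia difference was -0.23, with an adjusted p of 0.332 by limma. The acyl-CoA dehydrogenases, which take the first electrons at very long, long, medium and short chain lengths, gave post- versus pre-hyperglycemia differences of -0.06 (Acadvl), -0.08 (Acadl), -0.14 (Acadm) and -0.19 (Acads). Acadm was the member of this step with the smallest unadjusted p against BBDR.+/+, at a difference of -0.12 and an adjusted p of 0.578 by limma. Hadha and Hadhb, the subunits of the trifunctional protein, differed by -0.16 and -0.19 between post- and pre-hyperglycemia arrays, and the short-chain enzymes Hadh and Echs1 by -0.10 and -0.07. At the brightest probe sets, no enzyme of the spiral differed from its pre-hyperglycemia level by as much as Cpt1a did. The dimmer probe sets of these enzymes did not share the sign, with post- versus pre-hyperglycemia differences of 0.06 for Acaa2 (at 7.26 to 7.45), 0.06 for Hadh (at 4.6 to 4.97), and 0.00 (at 5.87 to 6.20) and 0.38 (at 3.55 to 4.12) for Hadha, and none was called.

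Enzymes that prepare unsaturated fatty acids for the spiral showed a like order of the groups. Eci1, the mitochondrial enoyl-CoA isomerase, had log2 signals of 11.12 and 11.18 in post-hyperglycemia, 11.49 and 11.51 in pre-hyperglycemia and 11.16 and 11.12 in BBDR.+/+ arrays at its brightest probe set, whose identifier marks it as able to match several transcripts. The difference between post- and pre-hyperglycemia arrays was -0.35, with an adjusted p of 0.113 by limma. A dim second probe set of Eci1 (1370961_at) had 4.35 and 4.40 in post-hyperglycemia, 4.52 and 4.75 in pre-hyperglycemia and 4.92 and 4.94 in BBDR.+/+ arrays. That probe set fell by 0.55 (1.47-fold, adjusted p = 0.0171 by limma) in post-hyperglycemia versus BBDR.+/+ arrays. The call was lost without post-hyperglycemia replicate 1 (-0.53) or 2 (-0.58) and without BBDR.+/+ replicate 1 (-0.56) or 2 (-0.54). Decr1 and Decr2, the mitochondrial and peroxisomal dienoyl-CoA reductases, differed by -0.19 and -0.17 between post- and pre-hyperglycemia arrays and by 0.17 and 0.22 between post-hyperglycemia and BBDR.+/+ arrays, the last of these with an adjusted p of 0.31 by limma. For Eci2, the isomerase of both organelles, post-hyperglycemia replicate 1 was low (9.60, against 10.03 in replicate 2) and the other groups ranged from 9.98 to 10.09.

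Electron transfer flavoprotein and its oxidoreductase carry electrons from the dehydrogenases to ubiquinone, and 0 of their 3 genes were called. Etfdh, the oxidoreductase, had 10.80 and 10.81 in post-hyperglycemia, 11.12 and 11.01 in pre-hyperglycemia and 11.12 and 11.00 in BBDR.+/+ arrays. Its post-hyperglycemia arrays were low against both groups, with differences of -0.25 from each and adjusted p values of 0.277 (pre-hyperglycemia) and 0.208 (BBDR.+/+) by limma. Etfa, the alpha subunit, differed by -0.13 from pre-hyperglycemia and -0.24 from BBDR.+/+ arrays, and Etfb, the beta subunit, by 0.01 and 0.09.

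Ketone body metabolism was represented by Acat1 and Bdh1, the only listed genes of that pathway. Acat1 joins acetyl-CoA units to acetoacetyl-CoA, and Bdh1 interconverts acetoacetate and 3-hydroxybutyrate. Acat1 had log2 signals of 10.49 and 10.77 in post-hyperglycemia, 10.94 and 11.20 in pre-hyperglycemia and 10.81 and 10.99 in BBDR.+/+ arrays. Bdh1 had 10.46 and 10.50 in post-hyperglycemia, 10.73 and 10.79 in pre-hyperglycemia and 10.53 and 10.56 in BBDR.+/+ arrays. Both genes were lowest in the post-hyperglycemia arrays without overlap with the pre-hyperglycemia arrays, and neither passed the test. Against pre-hyperglycemia the differences were -0.44 (adjusted p = 0.137 by limma) for Acat1 and -0.28 (adjusted p = 0.203 by limma) for Bdh1. Against BBDR.+/+ they were -0.28 (adjusted p = 0.296 by limma) for Acat1 and -0.07 for Bdh1. Acat1 passed against pre-hyperglycemia with the replicate number as a block (-0.44, adjusted p = 0.0368 by limma), though same-numbered arrays share only a number. That fit also called 1191 of all probe sets, where 677 were called without the block. With the difference between 3' and 5' control signal as a covariate, the direction of Acat1 turned in both comparisons with post-hyperglycemia arrays. Second probe sets gave post- versus pre-hyperglycemia differences of -0.26 for Bdh1 and -0.03 for Acat1, the last at a signal of 7.19 to 7.68.

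In peroxisomes, Acox3 and Ehhadh fell. Acox3, an oxidase of branched-chain acyl-CoAs, had log2 signals of 7.06 and 7.64 in post-hyperglycemia, 8.31 and 8.33 in pre-hyperglycemia and 8.47 and 8.70 in BBDR.+/+ arrays. The post-hyperglycemia arrays were low and differed between themselves by more than those of the other groups. Acox3 fell by 1.23 (SE 0.17, 2.35-fold, adjusted p = 0.00252 by limma) relative to BBDR.+/+ and by 0.97 (1.95-fold, adjusted p = 0.0169 by limma) relative to pre-hyperglycemia. Without BBDR.+/+ replicate 2 the first call was lost (-1.12), and without post-hyperglycemia replicate 1 (-0.67) or pre-hyperglycemia replicate 2 (-0.96) the second was.

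Ehhadh, the bifunctional enzyme of straight-chain peroxisomal oxidation, had 10.78 and 11.27 in post-hyperglycemia, 11.68 and 11.88 in pre-hyperglycemia and 11.27 and 11.37 in BBDR.+/+ arrays. It fell by 0.75 (SE 0.15, 1.69-fold, adjusted p = 0.0323 by limma) in post- versus pre-hyperglycemia arrays. The call was lost without post-hyperglycemia replicate 1 (-0.51), pre-hyperglycemia replicate 2 (-0.65) or either BBDR.+/+ array (-0.75), and in a limma fit of the 4 arrays of the comparison alone (-0.75, adjusted p = 0.0697). The post-hyperglycemia arrays reached the BBDR.+/+ range in 1 of 2 arrays, at a difference of -0.29 and an adjusted p of 0.328 by limma. Hsd17b4, the bifunctional enzyme of branched-chain oxidation, differed by -0.23 from pre-hyperglycemia and -0.21 from BBDR.+/+ arrays, whereas Acox2, the oxidase of bile acid precursors, and Scp2, sterol carrier protein and thiolase, moved by 0.10 or less in either comparison. A second, bright probe set of Scp2 differed by 0.09 from pre-hyperglycemia and 0.05 from BBDR.+/+ arrays. At their brightest probe sets, all 5 enzymes of the peroxisomal spiral had differences below 0 in both comparisons with post-hyperglycemia arrays, with medians of -0.23 against pre-hyperglycemia and -0.21 against BBDR.+/+.

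Enzymes of alpha-oxidation, which remove a single carbon from branched acids such as phytanic acid, gave mixed orders. Phyh, phytanoyl-CoA hydroxylase, had 12.43 and 12.57 in post-hyperglycemia, 12.48 and 12.36 in pre-hyperglycemia and 12.27 and 12.09 in BBDR.+/+ arrays, and its difference of 0.33 from BBDR.+/+ had an adjusted p of 0.137 by limma. A second bright probe set of Phyh (1387271_at) had 10.93 and 11.07 in post-hyperglycemia, 11.18 and 11.34 in pre-hyperglycemia and 11.03 and 11.08 in BBDR.+/+ arrays. The sign differed between the probe sets in both comparisons, at -0.26 against pre-hyperglycemia and -0.06 against BBDR.+/+ for the second and 0.08 and 0.33 for the brightest. Hacl1, the lyase of the next step, had 10.53 and 10.69 in post-hyperglycemia, 10.40 and 10.46 in pre-hyperglycemia and 10.77 and 10.66 in BBDR.+/+ arrays. It was the enzyme with both post-hyperglycemia arrays above both pre-hyperglycemia arrays, at a difference of 0.18 and an adjusted p of 0.49 by limma. Amacr, the racemase that prepares branched acids for oxidation, differed by -0.14 from pre-hyperglycemia and 0.03 from BBDR.+/+ arrays.

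Products leave peroxisomes as carnitine esters made by Crat (acetyl groups, also in mitochondria) and Crot (medium chains). Crat had 9.29 and 9.27 in post-hyperglycemia, 9.59 and 9.62 in pre-hyperglycemia and 9.03 and 9.07 in BBDR.+/+ arrays, so that the groups did not overlap and the post-hyperglycemia arrays lay between the others. Its pre-hyperglycemia level rose by 0.55 (1.47-fold, adjusted p = 0.0369 by limma) over BBDR.+/+, and this call was lost without pre-hyperglycemia replicate 1 (0.56) or 2 (0.54) and without BBDR.+/+ replicate 1 (0.53) or 2 (0.57), and after quantile normalization (0.50, adjusted p = 0.0603). The post- versus pre-hyperglycemia difference of Crat was -0.32, with an adjusted p of 0.141 by limma. Pex11a, which takes part in peroxisome division, was at 7.75 and 7.95 in post-hyperglycemia, 7.99 and 7.94 in pre-hyperglycemia and 7.64 and 7.52 in BBDR.+/+ arrays, and its difference of 0.27 from BBDR.+/+ in post-hyperglycemia arrays had an adjusted p of 0.199 by limma. A dim second probe set of Pex11a, at 4.18 to 5.12, differed by -0.56 from pre-hyperglycemia and -0.47 from BBDR.+/+ arrays and was not called.

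Crot gave unlike answers at its 3 probe sets. Its brightest probe set (1368426_at) had 9.81 and 10.05 in post-hyperglycemia, 10.20 and 10.05 in pre-hyperglycemia and 9.94 and 9.84 in BBDR.+/+ arrays, with differences of -0.19 from pre-hyperglycemia and 0.04 from BBDR.+/+. A second probe set (1387183_at) had 6.68 and 7.02 in post-hyperglycemia, 8.06 and 8.17 in pre-hyperglycemia and 8.32 and 8.35 in BBDR.+/+ arrays. That probe set fell by 1.27 (2.40-fold, adjusted p = 0.00156 by limma) relative to pre-hyperglycemia and by 1.48 (SE 0.12, 2.79-fold, adjusted p = 0.000364 by limma) relative to BBDR.+/+, and both calls held with any 1 array left out. The third probe set (1380015_at) was dim, at 4.59 to 4.99. A statement that Crot fell therefore rests on 1 of its 3 probe sets, and the position of the probe sets along the transcript was not analysed here.

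Acyl-CoA thioesterases release free acids and coenzyme A. Acot12, which hydrolyses acetyl-CoA in the cytosol, had 8.52 and 8.47 in post-hyperglycemia, 9.20 and 9.15 in pre-hyperglycemia and 9.30 and 9.26 in BBDR.+/+ arrays. The post-hyperglycemia arrays were low against both groups, and the 2 arrays of each group lay close together. Acot12 fell by 0.78 (SE 0.10, 1.72-fold, adjusted p = 0.00195 by limma) relative to BBDR.+/+, which held with any 1 array left out, and by 0.68 (1.60-fold, adjusted p = 0.008 by limma) relative to pre-hyperglycemia, which was lost without pre-hyperglycemia replicate 2 (-0.71). Acot8, a peroxisomal thioesterase of broad range, differed by -0.16 from pre-hyperglycemia and 0.11 from BBDR.+/+ arrays. Acot2 and Acot1, the mitochondrial and cytosolic long-chain thioesterases, are close paralogs whose probe sets could share signal. Acot2 had 8.85 and 9.02 in post-hyperglycemia, 9.16 and 9.07 in pre-hyperglycemia and 8.85 and 8.78 in BBDR.+/+ arrays at its brightest probe set and was not called there. A second probe set of Acot2 (1384115_at) differed by -0.35 from pre-hyperglycemia and 0.07 from BBDR.+/+ arrays and was not called. A dim probe set of Acot2 (1388210_at) had 3.06 and 3.25 in post-hyperglycemia, 3.66 and 3.97 in pre-hyperglycemia and 3.28 and 3.39 in BBDR.+/+ arrays. It fell by 0.67 (1.59-fold, adjusted p = 0.0265 by limma) relative to pre-hyperglycemia, and the call was lost without post-hyperglycemia replicate 1 (-0.57), pre-hyperglycemia replicate 2 (-0.51) or either BBDR.+/+ array (-0.67). Acot1 was dim in all 6 arrays, at 2.85 to 3.26.

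**Figure D2:**
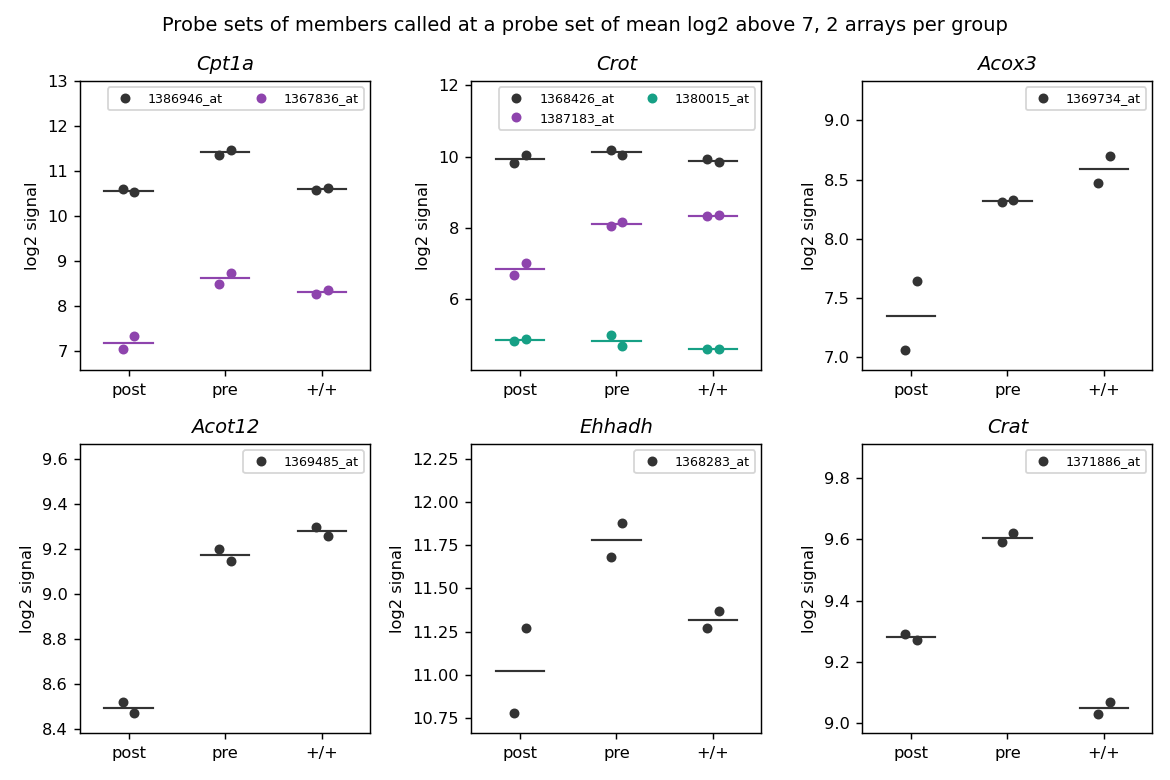
Log2 signal (y axis) in each array for all probe sets of the 6 enzymes called at a probe set with a mean log2 signal above 7, with post-hyperglycemia at the left, pre-hyperglycemia in the middle and BBDR.+/+ at the right of each panel. Each point is an array and each short line the mean of the 2 arrays. Cpt1a 1386946_at is high in the pre-hyperglycemia arrays, and Crot 1387183_at and Acox3 are low in the post-hyperglycemia arrays.

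Over all 51 probe sets, 7 were lower and 0 higher in post- versus pre-hyperglycemia arrays, where 1.46% of all probe sets were lower and 0.718% higher. Against BBDR.+/+, 5 were lower and 0 higher in post-hyperglycemia arrays, beside 3.26% and 1.89% of all probe sets, and 2 were higher and 0 lower in pre-hyperglycemia arrays, beside 0.464% and 0.254%. Probe sets of the same gene disagreed by more than a log2 difference of 1 for Crot (range 1.73) and Cpt1a (range 1.09) in post-hyperglycemia versus BBDR.+/+ arrays, that is 2 of 12 enzymes with several probe sets, where 4.24% of 4525 such genes did.

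Signal along transcripts moved with the groups. The difference between the 3' and the 5' control probe sets of beta-actin was 2.11 and 2.04 in post-hyperglycemia, 1.51 and 1.32 in pre-hyperglycemia and 1.36 and 1.12 in BBDR.+/+ arrays on the log2 scale, and that of GAPDH was 1.37 and 1.33, 0.67 and 0.55, and 0.72 and 0.44 in the same order. Post-hyperglycemia arrays thus had the largest excess of 3' over 5' signal at these controls. With this difference as a covariate in limma, 0 of 36 enzymes were called in either comparison with post-hyperglycemia arrays, and 1 in each had an unadjusted p under 0.05. That fit also called 0 of all probe sets in both comparisons, so the lack of calls was not particular to the enzymes. In that fit the post- versus pre-hyperglycemia difference was -0.71 at Cpt1a 1386946_at, -0.82 at Cpt1a 1367836_at, -0.95 at Crot 1387183_at, -0.85 for Acot12, -0.27 for Acox3 and -0.11 for Ehhadh. Against BBDR.+/+ it was -0.43 at Cpt1a 1367836_at, -1.12 at Crot 1387183_at, -0.97 for Acot12, -0.44 for Acox3 and -0.19 at Eci1 1370961_at. Without the covariate these were -1.13, -1.48, -0.78, -1.23 and -0.55. Leaving out 1 array could not remove an excess that both post-hyperglycemia arrays shared. The post- versus pre-hyperglycemia difference was below 0 for 25 of 36 enzymes in that fit, where it was for 33 without the covariate. Since its values in the post-hyperglycemia arrays were above those of the other 4 arrays, its share in these results and that of the stage cannot be told apart.

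By step, the median post- versus pre-hyperglycemia difference was -0.36 for the ketone body genes (n = 2), -0.23 for the peroxisomal spiral (n = 5), -0.21 for the enzymes of unsaturated acids (n = 4), -0.19 for acyl export and peroxisome number (n = 3), -0.17 for the thioesterases (n = 4), -0.14 for the mitochondrial spiral (n = 9), -0.13 for electron transfer (n = 3), -0.11 for the carnitine shuttle (n = 3) and 0.08 for alpha-oxidation with the racemase (n = 3). The enzymes found only in mitochondria (n = 20) had a median of -0.17, and those of peroxisomes alone or shared with mitochondria (n = 14) had -0.16. The compartments thus had like medians, and no test of a difference between steps was made. Against BBDR.+/+, post-hyperglycemia medians were below 0 for electron transfer (-0.24), the peroxisomal spiral (-0.21) and the ketone body genes (-0.17) and between 0.01 and 0.23 for the other steps. Pre-hyperglycemia medians relative to BBDR.+/+ were highest for acyl export and peroxisome number (0.38), unsaturated acids (0.36) and the carnitine shuttle (0.32), and were 0.00 for electron transfer and -0.01 for the peroxisomal spiral.

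**Figure D3:**
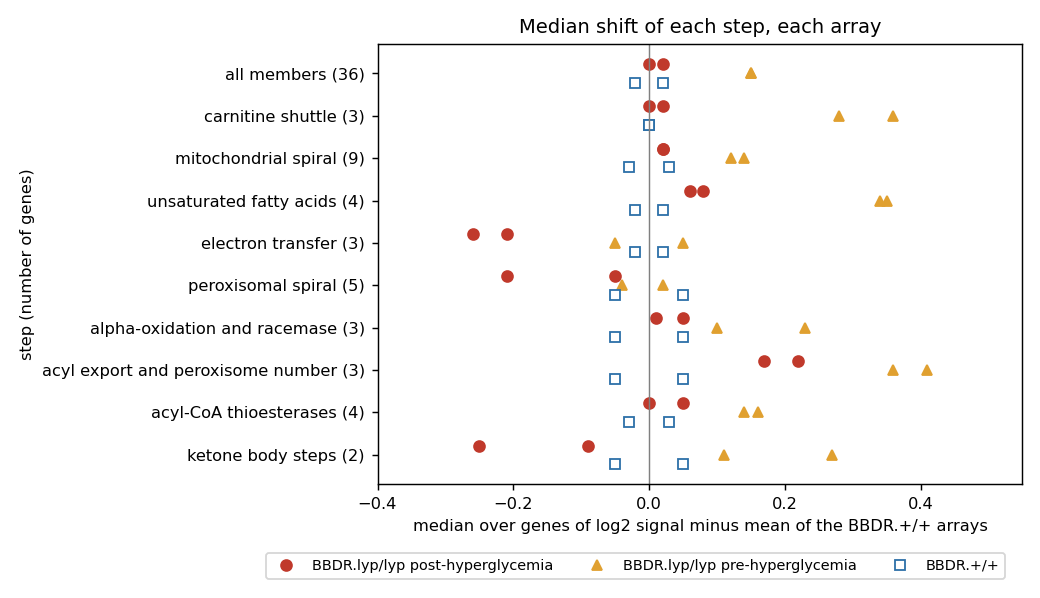
Median over the enzymes of each step of the log2 signal minus the mean of the BBDR.+/+ arrays (x axis), for each array, with the steps and their number of genes down the y axis. Over all 36 enzymes the post-hyperglycemia arrays (filled circles) stand at 0 and 0.02, the pre-hyperglycemia arrays (triangles) at 0.15 and 0.15 and the BBDR.+/+ arrays (open squares) at 0.02 and -0.02.

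**Figure D4:**
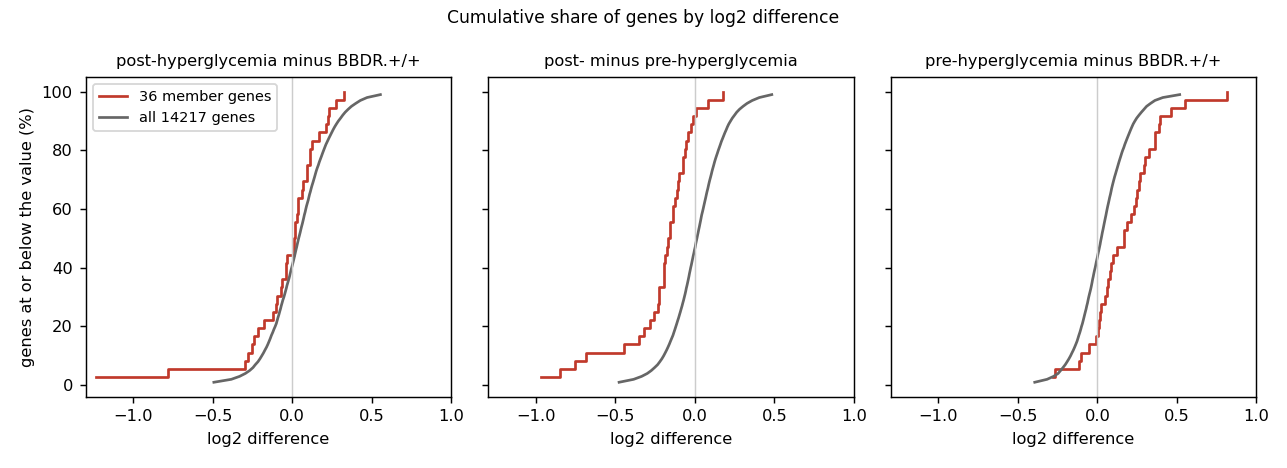
Share of genes (y axis, percent) at or below each log2 difference (x axis), for the 36 enzymes as steps and all 14217 genes as a smooth line, at their brightest probe sets and with a panel for each of the 3 comparisons. The enzymes lie below the median of all genes in post- versus pre-hyperglycemia (median -0.16 against 0.01) and above it in pre-hyperglycemia versus BBDR.+/+ (median 0.17 against 0.02).

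PPAR alpha binds a direct repeat of AGGTCA spaced by 1 base (DR1), so the promoters of these enzymes were searched for it on both strands, from 250 bases before to 50 bases after the start. The promoters of 34 of the 37 listed genes were found in the RefSeq table of the rat build GRCr8. Acadl, Acaa2 and Decr1 were not matched. A match with at most 2 mismatches outside the spacer was present in 8 of 34 (23.5%), beside 3.77% of all 33469 promoters and 3% of the 13193 promoters of genes on the array. With at most 1 mismatch it was 3 of 34 (8.82%), beside 0.439% and 0.417%. A single AGGTCA, which every exact repeat also holds, was in 26.5% of the enzymes' promoters and 16.2% of all, and the E-box CACGTG was in 0 of 34 and 6.42%. The 8 matches are shown because they are the part of these promoters that the search found, each read in the direction of the motif, with capitals for the bases equal to it and the spacer in lower case.
Slc25a20, chr8:118243588-118243600: AGGTgAaAGGTCg
Acadvl, chr10:55236710-55236722: AGGTCAgtGGTCA
Echs1, chr1:204333649-204333661: AGaTCAgAGGTCt
Etfa, chr8:64788107-64788119: AGGgCAaAGGTaA
Amacr, chr2:61673127-61673139: AGacCAaAGGTCA
Crat, chr3:34087310-34087322: AGGaCAccGGTCA
Acot8, chr3:173962198-173962210: gGGTCAgAGGTCA
Acot12, chr2:24721854-24721866: AGGTgAgAGGTCA
The post- versus pre-hyperglycemia differences of these 8 genes were all below 0, as were those of 33 of all 36 enzymes. Acot12, the only gene among them called in that comparison, differed by -0.68. Crat, called only in pre-hyperglycemia versus BBDR.+/+, differed by -0.32, and the other 6 by -0.16 to -0.06. A match is a run of letters in a window, and binding at these places was not measured.

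Whole promoters are shown for 3 called enzymes, Acot12 and Crat with a match (in capitals, as it reads on the strand of the gene) and Cpt1a without a match in this window. Acot12 lies at chr2:24721709-24722008 on the plus strand, Crat at chr3:34087050-34087349 on the minus strand and Cpt1a at chr1:209995910-209996209 on the plus strand.
Acot12: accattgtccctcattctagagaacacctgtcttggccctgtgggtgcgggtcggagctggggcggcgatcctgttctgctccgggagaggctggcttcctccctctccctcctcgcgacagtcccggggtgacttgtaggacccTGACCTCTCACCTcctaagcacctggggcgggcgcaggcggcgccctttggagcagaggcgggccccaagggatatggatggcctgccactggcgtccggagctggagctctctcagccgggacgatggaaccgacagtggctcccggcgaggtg
Crat: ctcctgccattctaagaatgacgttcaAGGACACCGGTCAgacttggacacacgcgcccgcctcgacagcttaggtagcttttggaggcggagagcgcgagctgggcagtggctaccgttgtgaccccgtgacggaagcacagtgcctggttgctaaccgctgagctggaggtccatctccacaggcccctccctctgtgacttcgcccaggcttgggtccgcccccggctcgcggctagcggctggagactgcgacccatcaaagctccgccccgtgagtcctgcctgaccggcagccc
Cpt1a: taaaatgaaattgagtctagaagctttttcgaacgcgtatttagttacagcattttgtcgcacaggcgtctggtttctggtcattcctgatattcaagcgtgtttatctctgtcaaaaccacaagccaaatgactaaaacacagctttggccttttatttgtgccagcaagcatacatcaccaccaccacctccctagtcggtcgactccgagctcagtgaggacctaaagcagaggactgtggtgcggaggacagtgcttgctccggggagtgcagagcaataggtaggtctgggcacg
The match of Acot12 lay at positions -105 to -93 from the start, on the opposite strand, and that of Crat at positions -223 to -211.

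Of 39 further genes of the pathway and of 16 in a list of its regulators and targets, few were called. Abcd3, the peroxisomal importer of long-chain acyl-CoA, had 9.81 and 10.00 in post-hyperglycemia, 9.45 and 9.46 in pre-hyperglycemia and 8.89 and 9.02 in BBDR.+/+ arrays. It was 1 of 39 higher in post-hyperglycemia than in BBDR.+/+ arrays (log2 difference 0.95, 1.93-fold, adjusted p = 0.00125 by limma), with 0 lower, and held with any 1 array left out. Against pre-hyperglycemia 2 of 39 were lower and 0 higher. These were Ech1, a dienoyl-CoA isomerase, at -0.49 (adjusted p = 0.0448 by limma), and Cyp4a3, an omega-hydroxylase of fatty acids, at -0.51 (adjusted p = 0.0465 by limma). Each of these calls was lost when any of the 6 arrays was left out (-0.57 to -0.42 for Ech1 and -0.56 to -0.45 for Cyp4a3). The median over the 39 genes was -0.07 for post- versus pre-hyperglycemia, -0.01 for post-hyperglycemia versus BBDR.+/+ and 0.03 for pre-hyperglycemia versus BBDR.+/+, where 0 were called.

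Ppara, the gene of PPAR alpha, was at 5.20 and 4.90 in post-hyperglycemia, 5.34 and 5.30 in pre-hyperglycemia and 5.26 and 5.23 in BBDR.+/+ arrays and was not called. Vnn1, a pantetheinase known as a PPAR alpha target in liver, had 7.0 and 7.30 in post-hyperglycemia, 7.77 and 7.64 in pre-hyperglycemia and 6.68 and 6.58 in BBDR.+/+ arrays, and had the order of Crat. It rose by 1.07 in pre-hyperglycemia versus BBDR.+/+ arrays (adjusted p = 0.00406 by limma, lost without BBDR.+/+ replicate 1 at 1.12 or 2 at 1.02). In post-hyperglycemia arrays it was higher than in BBDR.+/+ by 0.52 (adjusted p = 0.037 by limma, lost without post-hyperglycemia replicate 2 at 0.37, BBDR.+/+ replicate 1 at 0.57 or 2 at 0.47) and fell by 0.55 relative to pre-hyperglycemia (adjusted p = 0.0472 by limma). That last call was lost without post-hyperglycemia replicate 1 (-0.40), pre-hyperglycemia replicate 1 (-0.48) or 2 (-0.62) or either BBDR.+/+ array (-0.55). Pdk4 and Angptl4, of the same list as Vnn1, had another order, highest in the post-hyperglycemia arrays, and were not called. Pdk4 had 10.86 and 11.01 in post-hyperglycemia, 10.74 and 10.81 in pre-hyperglycemia and 10.60 and 10.58 in BBDR.+/+ arrays. Angptl4 had 10.97 and 10.98, 10.84 and 10.83, and 10.70 and 10.66 in the same order.

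Nr1d1, a clock repressor whose level depends on the time of day, also moved with the groups. It had 7.86 and 8.22 in post-hyperglycemia, 6.85 and 7.01 in pre-hyperglycemia and 8.47 and 8.48 in BBDR.+/+ arrays. Its log2 difference was 1.11 for post- versus pre-hyperglycemia (adjusted p = 0.00328 by limma) and -1.55 for pre-hyperglycemia versus BBDR.+/+ (adjusted p = 0.00105 by limma), and both calls held with any 1 array left out. The pre-hyperglycemia arrays thus stood apart in Nr1d1 as they did at the brightest probe set of Cpt1a. At the second probe set of Cpt1a the post-hyperglycemia arrays stood apart instead. The part of collection time in the results on the enzymes was not tested. Nr1d1 and Vnn1 were the genes called in the list of 16 regulators and targets, and Vnn1 is there as a target.

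Markers of other liver cells were set beside these results, since in whole tissue fewer cells of a type and less RNA per cell cannot be told apart. The summed signal of 9 hepatocyte markers lay between 16.92 and 16.95 on the log2 scale in all 6 arrays, and none of the 9 was called. Alb, 1 of the 9, lay at the highest signal of each array (14.60 to 14.62). A sum of such bright signals could miss a change in the share of hepatocytes. Hnf4a, the dimmest of the 9, differed by -0.40 between pre-hyperglycemia and BBDR.+/+ arrays, where the median of the 9 was -0.01. The summed signal of the 36 enzymes was 16.31 and 16.36 in post-hyperglycemia, 16.48 and 16.51 in pre-hyperglycemia and 16.36 and 16.34 in BBDR.+/+ arrays. Of 8 Kupffer cell markers, 4 were higher in post-hyperglycemia than in BBDR.+/+ arrays, with summed signals of 13.77 and 13.70 in post-hyperglycemia, 13.64 and 13.68 in pre-hyperglycemia and 13.36 and 13.39 in BBDR.+/+ arrays. Of 8 stellate cell markers, 2 were lower in post- than in pre-hyperglycemia arrays, with summed signals of 11.59 and 11.87 in post-hyperglycemia, 12.04 and 12.16 in pre-hyperglycemia and 11.84 and 11.86 in BBDR.+/+ arrays. Of 5 erythroid markers, 1 was higher in pre-hyperglycemia than in BBDR.+/+ arrays, with summed signals of 12.35 and 12.43 in post-hyperglycemia, 12.70 and 12.85 in pre-hyperglycemia and 12.55 and 12.63 in BBDR.+/+ arrays. Of 5 neutrophil markers, 2 were higher than in BBDR.+/+ in each lyp/lyp group, 1 of 6 endothelial markers was higher in post-hyperglycemia than in BBDR.+/+ arrays, and 1 stellate marker was higher in pre-hyperglycemia than in BBDR.+/+ arrays. Of 8 T cell, 5 cholangiocyte and 6 adipocyte markers, 0 were called. The stellate and erythroid sums had their highest values in the pre-hyperglycemia arrays, as the enzymes did. Each sum was mostly 1 bright marker, Col3a1 (11.03 to 11.65) for stellate and Hbb (12.22 to 12.73) for erythroid cells. The post- versus pre-hyperglycemia difference was below 0 for 7 of 8 stellate markers, all but Des (0.18), and for 5 of 5 erythroid markers. The part of these cells in the results was not tested.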

How the data were processed

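Liver RNA of 6 samples was hybridised to the Affymetrix rat genome array, which labels RNA from the 3' end. The authors deposited log2 values, 1 per probe set and array, after Expression Console and Partek Genomic Suite. For the algorithm and versions the sources used here give nothing, and the labels and the methods name different amplification kits. Array medians were 5.90 to 5.94, and Pearson r between arrays was 0.99 to 0.997. After 57 control probe sets were set aside, 31042 remained, without a filter: 20826 had 1 gene symbol, 436 several and 9780 none.

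Group means were compared with limma 3.58.1 in R 4.3.3 (3 residual and 7.7 prior degrees of freedom), with Benjamini-Hochberg adjustment over all 31042 probe sets and an adjusted p threshold of 0.05. Differences are on the log2 scale, with BBDR.+/+ always subtracted and pre-hyperglycemia subtracted from post-hyperglycemia. The test was checked on simulated data. The study's rank product test, which resamples genes, was not run, and its t-test was an alternative. The members, the 39 further pathway genes, the 16 regulators and targets and the 9 marker lists were chosen with earlier results of these data known. Named with tests were all called members, the member of each step with the smallest unadjusted p against pre-hyperglycemia and against BBDR.+/+, and called genes of the other lists. Alternatives were median centring, quantile normalization, the brightest 60% of probe sets, the arrays of the comparison alone, an intensity trend, a replicate block, the 3'/5' covariate, other choices of probe set and leaving out each array. Only 2 arrays per group limit the precision.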

Additional observations from a re-analysis of the deposited data

How the results depend on the processing

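The numbers of enzymes called, of 36, were 2 for post-hyperglycemia versus BBDR.+/+, 4 for post- versus pre-hyperglycemia and 2 for pre-hyperglycemia versus BBDR.+/+. Of all probe sets, 1599, 677 and 223 were called in the same order. The methods' t-test with Benjamini-Hochberg adjustment called 0, 0 and 0, where 5, 10 and 12 had an unadjusted p under 0.05. The same t-test called 0, 0 and 1 of all probe sets, so its lack of calls was not particular to the enzymes. The 3'/5' covariate in limma gave 0, 0 and 1, beside 0, 0 and 115 of all probe sets. The mean of a gene's probe sets gave 4, 6 and 2, any probe set 5, 6 and 2, the intensity trend 3, 6 and 5, and quantile normalization 2, 4 and 1. Of all probe sets, the intensity trend called 2371, 1225 and 496 and quantile normalization 1561, 616 and 182. The mean of a gene's probe sets called 753, 328 and 188 of all genes. Leaving out each array in turn gave fewer calls over all probe sets in every fit, and fewer among the enzymes in some. Median centring and the brightest 60% of probe sets gave 2, 4 and 2, and the arrays of the comparison alone 2, 3 and 2. Over all probe sets tested, median centring called 1634, 672 and 244 and the brightest 60% called 1881, 923 and 322. The arrays of the comparison alone called 1567, 413 and 212. With the replicate block the counts were 2, 5 and 2, and it changed no other call than that of Acat1. The block also raised the calls over all probe sets, to 2273, 1191 and 408. Correlations of same-numbered arrays' deviations were 0.14 (post-hyperglycemia and BBDR.+/+), 0.11 (post- and pre-hyperglycemia) and 0.26 (pre-hyperglycemia and BBDR.+/+), and with 2 numbers the arrays share only a number.

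Under the covariate the number of enzymes with a post- versus pre-hyperglycemia difference below 0 was 25 of 36, where it was 33 without it. Among the enzymes named with a test, the direction turned for Decr2 (-0.11), Phyh (-0.16) and Acat1 (0.59) in post-hyperglycemia versus BBDR.+/+ and for Acat1 (0.31) in post- versus pre-hyperglycemia, and with the mean of probe sets it turned for Pex11a (-0.10). The cause was not tested. The median difference of the enzymes between post- and pre-hyperglycemia stayed between -0.19 and -0.12 with any array left out, and was -0.14 with quantile normalization and with the covariate. Signal near the floor limits the dim probe sets of Eci1, Acot1, Acot2 and Crot.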
